A study of Homo sapiens with 9 samples.

Results

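Spliceosome genes outside a separate list of U2 and branch-point genes were examined as targets of SF3B1 itself. The set comprised 46 genes for components of the U1 particle, the U4/U6.U5 tri-snRNP, the PRP19 complex, the catalytic stages and the minor spliceosome. Helicases and associated RBM and LUC7L proteins were included, some of which act with the U2 particle or contact SF3B1. A site was assigned to a gene when its centre lay inside the RefSeq span of the gene (GRCh38.p14) on the strand of the gene. By this rule 1123 of the 96852 listed SF3B1 sites fell in these genes, which was 1.16% of the list (95% Wilson interval 1.09% to 1.23%, counting error only).

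The sites came from iCLIP. Ultraviolet light fixes a protein to the RNA it touches, the protein is pulled down with an antibody, and sequencing of the attached RNA marks the position of contact. The cells were K562, an established human leukaemia line. The 9 libraries of the series comprised SF3B1 from cells of the genotype SF3B1 wt/wt (3 libraries, replicates 2, 3 and 4), SF3B1 from SF3B1 K700E/wt cells (2 libraries, replicates 1 and 3) and U2AF2 from SF3B1 wt/wt cells (4 libraries). All were crosslinked at 254 nm with 400 mJ per square cm. The labels name Horizon Discovery as the provider of both lines used for SF3B1 and ATCC for the U2AF2 cells, and do not say whether a line was a single clone.

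One merged list of sites was analysed, which belongs to the 3 SF3B1 libraries from unmutated cells, per the labels. Its header says that all replicates of either condition reproduced each site, so single sites cannot be assigned to a genotype. The K700E and U2AF2 libraries were not analysed here. Every site was 5 nt wide, and the list gave no read number and no value per replicate. Depth is therefore unknown, and no spread between cultures and no test between conditions can be given. The list also holds no transcript abundance, so a gene with more RNA and a gene with more contacts per RNA cannot be told apart. The labels describe the cells as of lymphoid origin, whereas K562 is known as a myeloid line with erythroid features. Of 13 erythroid and megakaryocytic marker genes 7 held a site, and of 11 lymphoid marker genes 0 did. Erythroid genes without a site included KLF1, GYPC and the globin genes HBG1, HBG2 and HBZ.

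The spliceosome removes introns in steps. The U1 particle recognises the 5′ splice site, and the U2 particle, which carries SF3B1, is placed on the branch point near the 3′ splice site. The U4/U6.U5 tri-snRNP then joins, helicases remodel the RNA pairings, and the PRP19 complex holds the catalytic RNA core in place. Many genes for splicing proteins are known to carry introns or exons whose own splicing is regulated, which can set the level of the protein.

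The only base sequences used here were windows around RefSeq gene starts, which contained 3 of the 1123 sites with 12 nt of flank on each side. They are shown because 2 of them place SF3B1 at the very start of a spliceosome gene and the third is in the interior of RBM5. Each is written 5′ to 3′ on the strand of the gene, with the 5 nt of the site in capitals. The PRPF38A sites were read from the window of ORC1 and the RBM5 site from that of RBM5-AS1, both genes on the opposite strand. The first 2 lines are from PRPF38A (chr1:52404607-52404635 and chr1:52404640-52404668, plus strand), the third is from RBM5 (chr3:50100974-50101002, plus strand), all GRCh38.p14 from RefSeq.
PRPF38A first site: acggtgtttccgGCTTCaagatggtcgcc
PRPF38A second site: ctgtttagtgaaACTTCttccacctttct
RBM5 site: tctgtggcggcaTTTTTataagtaattcc
Of the 29 nt shown, C and T made up 55.2%, 72.4% and 58.6%. The 398 sites of the list that could be read in the same way had a median of 65.5% (quartiles 51.7% and 72.4%), so all 3 lay within the quartiles. Those windows lie at gene starts and represent 0.411% of the list.

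SF3B1 sites were found in 44 of the 46 genes, against 37.9% of all 20056 protein-coding genes. At least 10 sites were present in 33 members (background 14.8%), at least 20 in 24 members (background 7.2%) and at least 40 in 10 members (background 2.29%). The members spanned 10021 to 249846 nt. Among all protein-coding genes of that length range, 46.5% held a site and 19.7% held at least 10. The median was 22.5 sites (quartiles 10.2 and 38) in the members with a site and 7 (quartiles 3 and 15) over all such protein-coding genes. Per kb of span, the medians were 0.687 sites in the members and 0.199 in all genes with a site. Density exceeded the upper quartile of all genes with a site (0.510 per kb) in 25 of the 44 members and was below their median in 7.

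**Figure D1:**
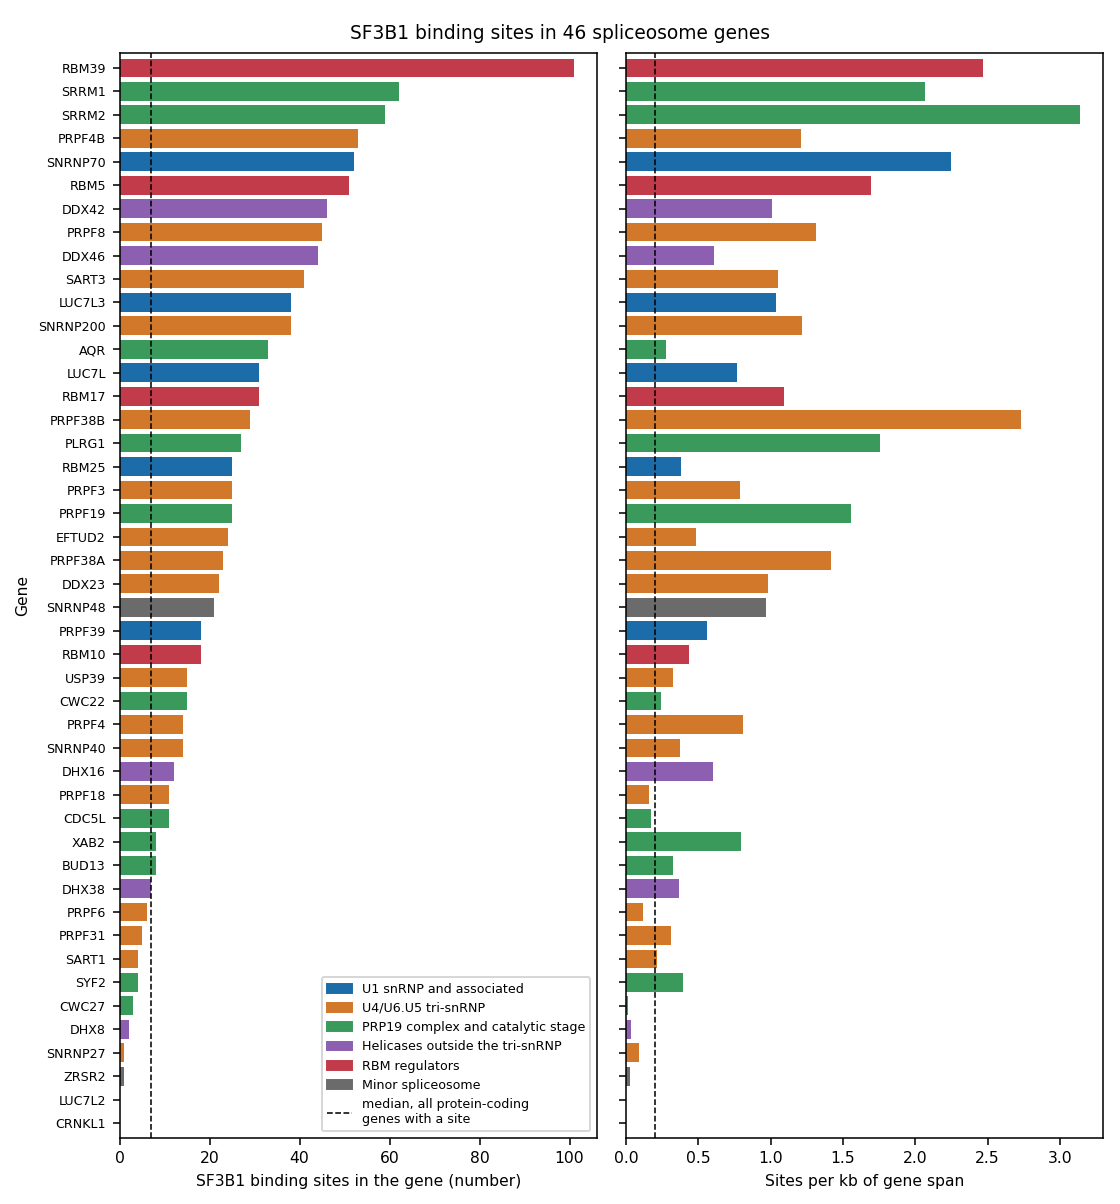
Number of SF3B1 sites (left) and sites per kb of gene span (right) in each of the 46 genes, coloured by role; dashed lines are the medians over all protein-coding genes with a site (7 sites and 0.199 per kb). RBM39 has the most sites, 101, SRRM2 the highest density, 3.14 per kb, and LUC7L2 and CRNKL1 have 0.

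**Figure D2:**
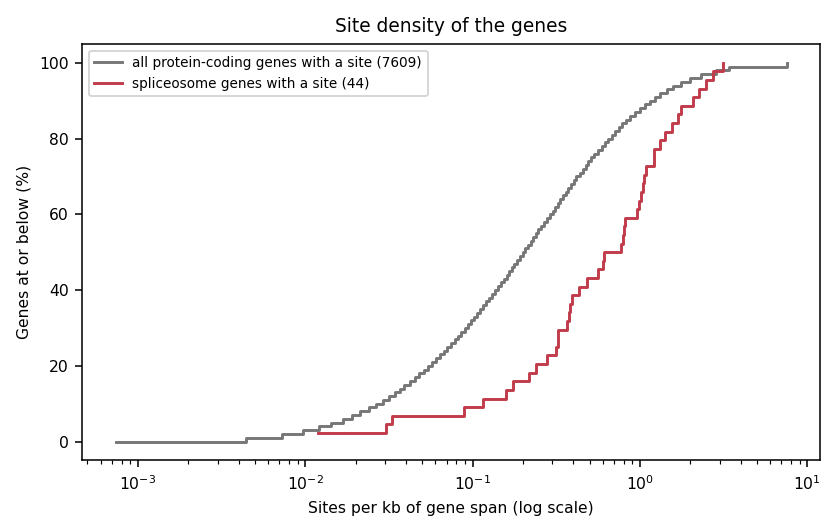
Cumulative share of genes (%) against sites per kb of span (log scale) for the 44 spliceosome genes with a site and for all 7609 protein-coding genes with a site. The curve of the spliceosome genes lies to the right over most of its range, with medians of 0.687 and 0.199 per kb.

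The 10 highest members together accounted for 554 of the 1123 sites (49.3%). Site number was almost unrelated to gene length among the members (Spearman's rho 0.08 across 46 genes, which are not independent replicates). Density fell with length, with a rho of -0.39 across the 44 members with a site and -0.56 across all 7609 genes with a site; both share the span as denominator.

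Genes for U1 components held 164 sites in 5 of 6 genes. SNRNP70 encodes the U1-70K protein, which binds U1 RNA directly. It had 52 sites (2.25 per kb; chromosome 19, plus strand, 49085451 to 49108604), and none lay in its first 12923 nt. The 3 LUC7L paralogues, homologues of a yeast U1 protein that acts in choice of 5′ splice sites, differed widely. LUC7L3 had 38 sites (1.04 per kb), LUC7L had 31 (0.766 per kb), and LUC7L2 had 0 in a span of 82983 nt. Both strands of LUC7L2 were empty. The site nearest to LUC7L2 lay 32898 nt away, in UBN2, and 5 of the 11 other protein-coding genes within 500 kb held a site. RBM25, a U1-associated regulator, had 25 sites (0.382 per kb), and PRPF39, a U1 accessory protein, had 18 (0.560 per kb).

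All 17 genes of the tri-snRNP group held a site, 370 in total, with a median of 22. The group includes factors that assemble, modify or recycle the particle. PRPF4B (PRP4K in RefSeq) encodes a kinase that phosphorylates tri-snRNP proteins and had the most, 53 sites (1.21 per kb). PRPF8, the scaffold of the catalytic core in the U5 particle, had 45 sites (1.31 per kb). SNRNP200, the helicase that unwinds the U4/U6 pairing, had 38 sites (1.22 per kb). SART3, which recycles U4/U6, had 41 (1.05 per kb).

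Other U5 proteins had fewer sites. The GTPase EFTUD2 had 24 (0.485 per kb), SNRNP40 had 14 (0.376 per kb) and PRPF6, which bridges U5 to U4/U6, had 6 (0.115 per kb). Of the U4/U6 proteins, PRPF3 had 25 sites (0.787 per kb), PRPF4 had 14 (0.812 per kb) and PRPF31 had 5 (0.313 per kb). The helicase DDX23, which displaces U1 from the 5′ splice site, had 22 sites (0.982 per kb). The paralogous B-complex proteins PRPF38A and PRPF38B had 23 and 29 sites (1.42 and 2.73 per kb). USP39 had 15 sites, PRPF18, a factor of the second catalytic step, had 11, and SART1 had 4. SNRNP27 had a single site.

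The 12 genes of the PRP19 complex, its partners and the catalytic stage had the widest range of densities, from 0.012 to 3.14 per kb, with 255 sites in 11 genes. SRRM1 and SRRM2, large serine- and arginine-rich proteins of the spliceosome, had 62 and 59 sites (2.07 and 3.14 per kb). SRRM2 was the densest of all members and stood at rank 91 by density among the 2965 genes that held 10 or more sites. PLRG1 and PRPF19, partners in the core of the complex, had 27 and 25 sites (1.75 and 1.56 per kb). CDC5L, of the same core, had 11 (0.175 per kb).

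AQR, an intron-binding helicase, had 33 sites over 117961 nt (0.280 per kb). CWC22, which links splicing to deposition of the exon junction complex, had 15 sites and the cyclophilin-like CWC27 had 3. XAB2 and BUD13 had 8 sites each and SYF2 had 4. CRNKL1 had 0 sites, and the nearest site lay 1847 nt away in the neighbouring gene NAA20. Of the 6 other protein-coding genes within 500 kb, only 1 held a site.

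The 5 helicases outside the tri-snRNP all held sites, 111 in total. DDX42 and DDX46, which act with the U2 particle early in assembly, had 46 and 44 sites (1.01 and 0.608 per kb). The helicases of the catalytic and release steps had fewer: DHX16 had 12 sites, DHX38 had 7 and DHX8 had 2.

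The 4 RBM regulators held 201 sites, the highest median per gene of the role groups (41). RBM39, a U2AF2-related splicing factor, had 101 sites (2.47 per kb; chromosome 20, minus strand, 35701347 to 35742260). It ranked 36 by site number among 20056 protein-coding genes. The paralogues RBM5 and RBM10, regulators of alternative splicing, had 51 and 18 sites (1.69 and 0.433 per kb). RBM17, which contacts SF3B1 and takes part in 3′ splice site choice, had 31 (1.09 per kb). Of the 2 minor-spliceosome genes, SNRNP48, which encodes a U11/U12 protein, had 21 sites (0.965 per kb) and ZRSR2, which recognises the 3′ splice site of U12-type introns, had 1.

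Strand assignment left few doubtful sites. The strand came from the RefSeq promoter table for 42 members; for PRPF3, PRPF39, SART3 and RBM39 it was that of their sites, all of which lay on 1 strand. In 42 of the 44 members with a site, the opposite strand of the span was empty. The exceptions were DHX8, with 5 opposite sites, all inside the overlapping gene ETV4, and USP39, with 2 inside C2orf68. Overlap with genes annotated on the opposite strand involved 5 sites of PRPF18 in FRMD4A, 6 of PRPF38A in ORC1, 8 of RBM5 in RBM5-AS1 and 3 in SEMA3F-AS1. No member site lay in another protein-coding gene on the same strand.

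How closely sites were packed differed among the members. The densest 2 kb of each gene, a measure chosen after the positions had been seen, held at least 50% of the sites in 9 of the 33 members with at least 10 sites. The background was 26.2% of all genes with at least 10 sites, so the members' share (27.3%) was close to it. The number of sites in that stretch had a median of 11 in these members and 8 in all such genes. At least 20 sites lay within 2 kb in 6 of the 33 members with at least 10 sites. They were LUC7L3, SNRNP70, SRRM2, SRRM1, PRPF4B and RBM39. The background was 2.9% of all genes with at least 10 sites (86 genes), not matched for the number of sites per gene. Apart from LUC7L3, these are the members with the most sites.

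In LUC7L3, 33 of 38 sites lay within 1984 nt, between positions 50750466 and 50752449 of chromosome 17, plus strand. This stretch lay 3770 nt before the 3′ end of the gene and was preceded by 6782 nt without a site. SNRNP70 also had 33 sites in its densest stretch, within 1995 nt between positions 49102597 and 49104591 of chromosome 19. For sites within 2 kb, 5 protein-coding genes had 33 or more, these 2 included, and the highest value in any gene was 40. SNRNP70 still had 19 sites outside the stretch, whereas LUC7L3 had 5.

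**Figure D3:**
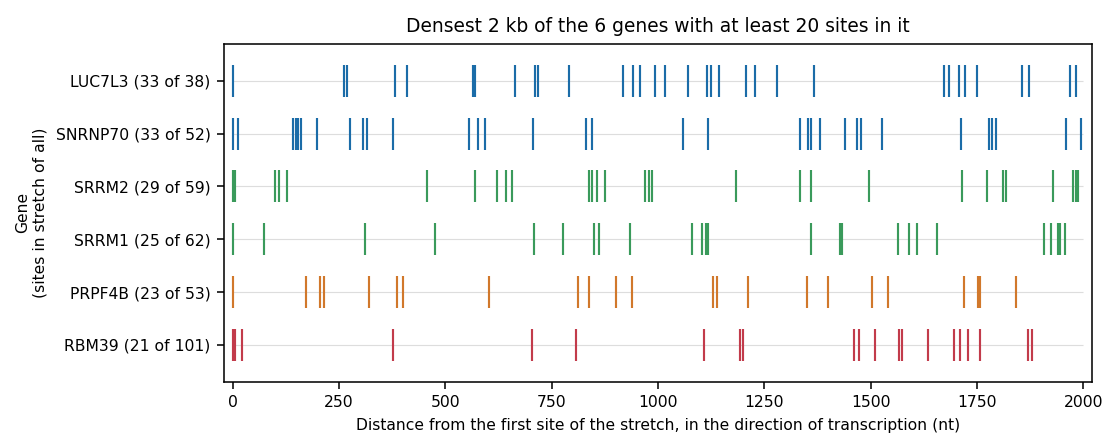
Each mark is the centre of 1 SF3B1 site in the densest 2 kb of the 6 members with at least 20 sites there; the axis is the distance (nt) from the first site of the stretch in the direction of transcription, and colours are the roles as in the plot of sites by gene. LUC7L3 and SNRNP70 have 33 sites each, spread through the whole stretch, and RBM39 has 21.

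SRRM2 had 29 sites within 1989 nt near its 3′ end (2768326 to 2770314 of chromosome 16). Its sites formed 2 blocks: 25 lay between 30% and 50% of the gene's length, 34 beyond 80%, and none elsewhere. The empty stretch between the blocks was 6390 nt long, from position 2761773 to 2768163. SRRM2 is known to hold an unusually long coding exon; exon limits were not used here, so its position relative to this gap was not tested. SRRM1 had its stretch near the opposite end, with 25 of 62 sites between positions 24646893 and 24648849 of chromosome 1, which began 3591 nt after the gene start.

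PRPF4B had 23 of 53 sites between positions 4060790 and 4062633 of chromosome 6. In all, 30 of its sites lay in the last 10% of the gene and none in the first 25831 nt. In RBM39 the densest stretch (21 sites, 35738918 to 35740797) began 1463 nt after the start, but this stretch held only 20.8% of its sites. RBM39 sites were most frequent in the first 10% of the gene (23) and from 80% to 90% (25). None lay from 50% to 60%, and each other 10% step held between 4 and 12.

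Other members had shorter or less dense stretches. LUC7L had 16 of its 31 sites between positions 227366 and 228463 of chromosome 16, minus strand, beginning 986 nt after its start, and so differed from LUC7L3, whose stretch was near the 3′ end. PRPF38B had 19 of 29 sites within 1974 nt, and SNRNP48 had 16 of 21 within 1707 nt. In AQR the densest 2 kb held 3 of 33 sites, and in SNRNP200 it held 9 of 38.

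**Figure D4:**
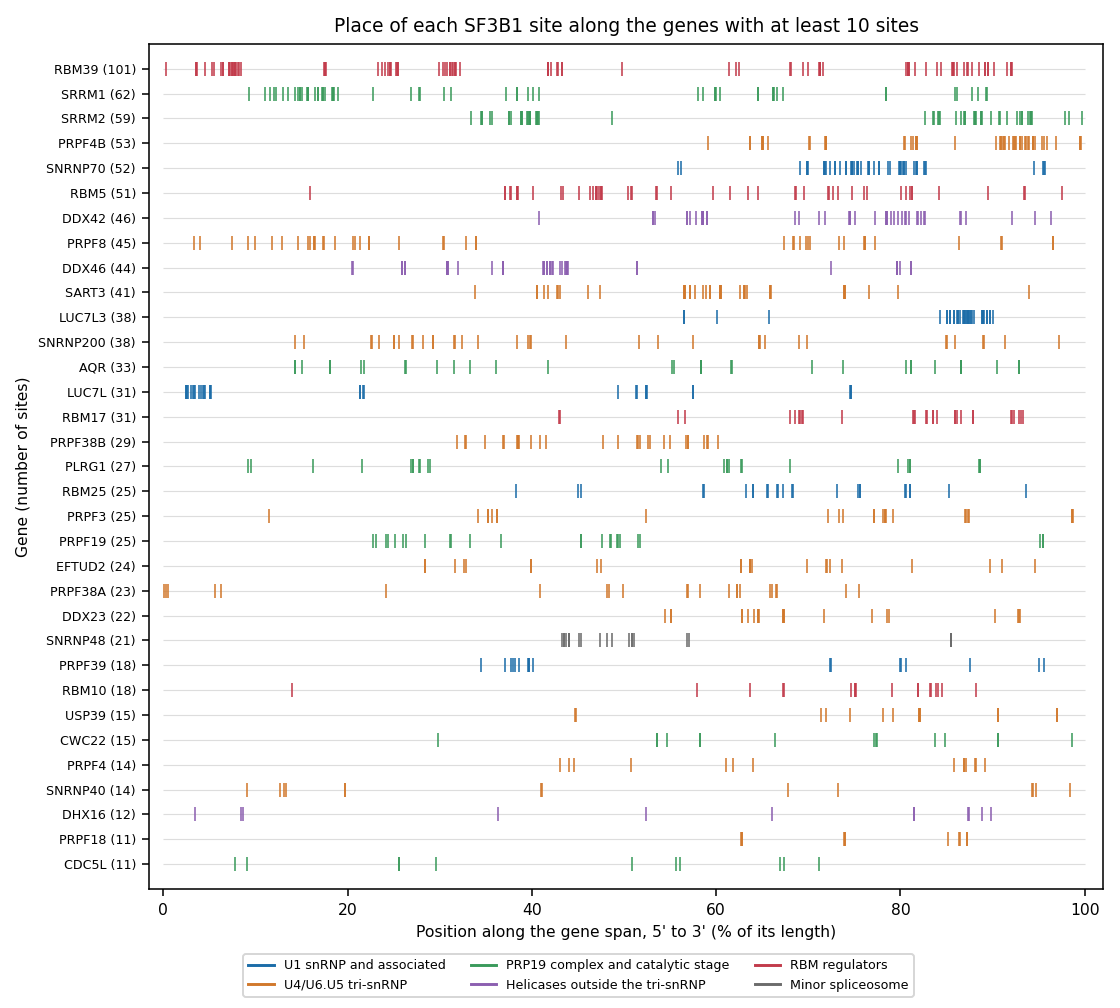
Position of every SF3B1 site along the span of the 33 members with at least 10 sites, from the 5′ end (0%) to the 3′ end (100%) of the gene; colours are the roles, and numbers in parentheses are sites per gene. The dense stretch of LUC7L3 is centred at 87.3% of the span and that of LUC7L at 3.74%, while the sites of SNRNP200 and AQR are spread out.

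Along the gene, 62.2% of member sites lay beyond the midpoint of the span, against 63.4% over all protein-coding genes. The last 10% of the span held 106 member sites (9.44%) and the first 10% held 60 (5.34%), while over all genes these shares were 13.5% and 4.63%. RBM39 and LUC7L alone contributed 23 and 16 of the 60 sites in the first 10%. Without both, the ratio of last to first 10% was 4.81 instead of 1.77, and without PRPF4B it was 1.27, so the ratio rests on single genes. The step from 80% to 90% held 215 sites (19.1%, against 13.7% over all genes), of which 33 were in LUC7L3. No site was present in the first 10% in 24 of the 33 members with at least 10 sites, close to the background of 72.1%. The median site lay beyond the midpoint of the gene in 22 of them (66.7%, background 69.4%).

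PRPF38A was the only member with a site in the first 50 nt of its span, 1 of 44 genes with a site; in all protein-coding genes with a site this was seen in 71 of 7609 (0.933%). The centre of its first site lay 19 nt after the start, within the first sequence shown above. It had 5 sites in its first 10% and 1 between 10% and 40%.

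Neighbouring sites of a member lay at a median distance of 114 nt (quartiles 23 and 517). A distance of 60 nt or less separated 41.2% of these neighbours, against 36.4% in the whole list. Distances in the whole list also run from gene to gene, which can lower its share, so these shares are not like for like. Linking sites at most 60 nt apart gave 678 clusters, of which 402 (59.3%) were single sites, against 63.3% in the whole list. Clusters of at least 5 sites numbered 16, which was 2.36% of the member clusters and 1.23% of all clusters. They occurred in 9 of the 38 members with at least 5 sites (23.7%), against a background of 12.3% of such genes. This background was not matched for the number of sites per gene. Among genes with at least 10 sites, the largest cluster had a median of 3 sites in the 33 members and 4 in all 2965 genes.

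The cluster with the most sites lay in LUC7L3 and held 9 sites in 227 nt (50751383 to 50751609), a size reached by 4 clusters in the whole list. SNRNP70 had a cluster of 8 sites in 192 nt (49103932 to 49104123), and 12 clusters of the list had 8 sites. In SNRNP48 a cluster of 7 sites covered 175 nt (7599615 to 7599789 of chromosome 6). The LUC7L3 cluster had gaps of 9 to 54 nt between neighbours, and 3 of its 8 gaps were 25 to 45 nt. SRRM2 had a cluster of 6 sites in 70 nt. RBM39 had 3 separate clusters of 5 sites, DDX46 and SRRM2 had 2 each, and LUC7L3, SNRNP70, DDX42, SART3 and SRRM1 had 1 each.

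Distances between any 2 sites of a member were counted and summed over 3 adjacent distances. The highest sum was 110 pairs at 6 nt, close to the width of a site, and the highest sum between 20 and 60 nt was 51 pairs at 37 nt. Pairs 25 to 45 nt apart numbered 247 and pairs 46 to 66 nt apart 104, a ratio of 2.38, against 3.59 over all protein-coding genes. Both spans came from an earlier analysis of the same list, chosen after its distances had been seen. Counts and ratios in these spans are therefore descriptive and support no claim about spacing. The nearer span held more pairs in 27 of the 33 members with at least 10 sites (81.8%, background 88.4%). The 6 exceptions were DDX46, LUC7L3, SNRNP48, PRPF39, RBM10 and CDC5L. In LUC7L3 there were 10 pairs in each span, and in SNRNP48 there were 4 and 7.

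**Figure D5:**
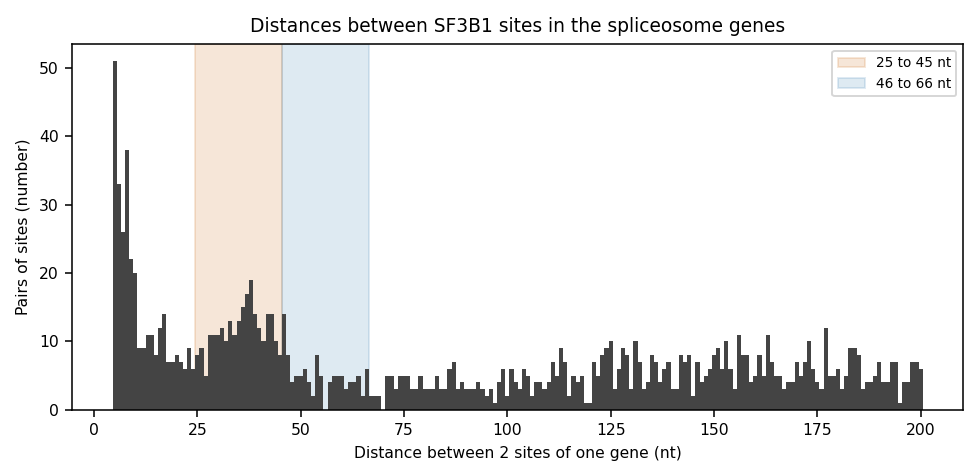
Number of pairs of SF3B1 sites at each distance (nt, 5 to 200) within the spliceosome genes; shading marks the spans 25 to 45 nt and 46 to 66 nt. The nearer span holds 247 pairs and the farther one 104. The spans were chosen after distances in the same list had been seen.

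The ratio of near to far pairs was lower in densely covered than in sparsely covered members. In the 6 members with at least 20 sites in 2 kb, pairs in the nearer span numbered 97 and in the farther span 57, a ratio of 1.70. In the 13 members with 10 to 19 sites in 2 kb the ratio was 2.38 (93 and 39 pairs), and in the 25 members with 1 to 9 it was 7.12 (57 and 8 pairs). All genes divided in the same way gave 1.95, 3.03 and 4.76, so the order was the same outside the set. Dense stretches contain more pairs at every distance by construction, and the difference was not tested. Genes with 1 to 9 sites in 2 kb still differed from each other. SNRNP200 and AQR, with 9 and 3 sites in their densest 2 kb, had 6 and 7 pairs in the nearer span and 0 in the farther one. In RBM10 there were 1 and 2 pairs, and in CDC5L 0 in both spans.

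Components of the U2 particle and of branch-point recognition are the closest comparison. Of 20 such genes 17 held a site, with a median of 11 sites and 0.848 per kb among those with a site, against 22.5 sites and 0.687 per kb in the 44 members. SF3B1's own gene had 51 sites (1.13 per kb) and U2SURP, whose protein is associated with the U2 particle, had 112. At least 20 sites within 2 kb were found in 3 of these 20 genes and in 6 of the 46 members, which were 15% of the U2 genes and 13.0% of the members. As a share of the 86 protein-coding genes with such a stretch, they were 3.49% and 6.98%. The median span was 14870.5 nt in the U2 genes and 31966.5 nt in the members. Pooled over all spans of each set, density was 1.03 and 0.597 sites per kb. The differences between the sets were not tested.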

How the data were processed

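The members and gene lists were chosen with earlier results of these data known. The deposited list gives positions of merged 5 nt sites and, per the file headers, keeps sites reproduced by all replicates of either condition. Every score deposited by the authors was 0, so scores were not used. The submitters' processing notes name FastQC 0.11.8, STAR 2.7.3a and 2.6.1b, UMI-tools 1.0.0, bedtools 2.27.1, GRCh38.p10 and GRCh38.p12, without roles; the site caller is not given in the sources used here. UMI-tools is software that removes duplicate reads by molecular identifier. A requirement of reproducibility can leave out sites in rare RNA.

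Positions were converted to 1-based coordinates. Of the 46 members, 45 matched RefSeq by symbol and PRPF4B by a synonym. Genes without a strand in the promoter table took the strand with more sites. Positions along a gene are percentages of the RefSeq span; exons and introns were not used here, and the planned comparison with 3′ splice sites was not made. All members are named with their counts. Further detail mostly follows the rule of most sites, highest density, largest cluster, 0 sites and paralogues. SNRNP48, SNRNP200 and AQR fall outside this rule and were picked after the positions had been seen. The 2 kb measure and its genes were added after the data were seen. Counting routines were tested on simulated data. The tools were SciPy 1.17.1, pandas 2.3.3, NumPy 2.4.6 and Python 3.11.15.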

Additional observations from a re-analysis of the deposited data

How the results depend on the processing

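Of 120 recalculations of 29 results, 113 stayed within 1.5 times of the value (counts and densities) or within the counting interval of the 2 counts behind a ratio, and 7 moved. Many had little room to move, so the 113 does not measure robustness. Taking the 5′ end of a site, or leaving out sites in another protein-coding gene on the same strand, left every value unchanged. Counting either strand added sites only in DHX8 and USP39. Restricting the background to genes with spans in the members' range raised the share of protein-coding genes with a site from 37.9% to 46.5%. Dividing member sites in the last 10% of the span by those in the first 10% gave 1.77; the value was 2.59 with 20% steps, 2.73 without RBM39, 1.27 without PRPF4B and 4.81 without RBM39 and LUC7L. The number of members with at least 50% of their sites in the densest stretch, 9 for 2 kb, was 3 for 1 kb and 20 for 5 kb. Merging touching sites gave 1072 member sites and 1 site per region number gave 1017; 10 and 9 of the 10 members with the most sites stayed among the 10 highest. Leaving out single genes, except from the pair distances, and the 2 kb measure with its other window lengths were chosen after seeing the data. The spans of the pair distances were taken from an earlier analysis of the same list, which chose them after seeing its distances.

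Alternatives that need exons or introns were not run. Leaving out a replicate was not possible in a merged list. No paired analysis was possible because replicates have no columns of their own. With no read numbers, 0 sites in LUC7L2 or CRNKL1 cannot be told from RNA too rare to give a reproducible site.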

Other observations

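A second list of 59 spliceosome genes that are not members, including the Sm and LSM proteins and further factors of the U1, tri-snRNP, PRP19 and minor particles, held 495 sites in 51 genes. Their median was 5 sites and 0.360 per kb among genes with a site, against 22.5 sites and 0.687 per kb in the members, and the difference was not tested. These genes were also shorter, with a median span of 16841 nt against 31966.5 nt in the members. Genes with many sites included DHX15 (42 sites), a helicase of spliceosome disassembly that is also counted among the U2 genes above, and the U1-associated TIAL1 (39) and TIA1 (38). SNRPD2, SNRPD3, LSM4, BCAS2, CTNNBL1, ISY1, RNF113A and ZMAT5 had 0 sites. None of the 59 genes had 20 sites within 2 kb.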
